A study of Mus musculus with 6 samples.

Results

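The genes described here make up a set of 9 that move ions, and with them water, across the alveolar epithelium. They comprise the 3 subunits of the epithelial sodium channel ENaC (*Scnn1a*, *Scnn1b* and *Scnn1g*), the chloride channels *Cftr*, *Ano1* and *Clcn2*, the sodium-potassium-chloride cotransporter *Slc12a2*, and the β subunits *Atp1b1* and *Atp1b3* of the sodium pump. The members were found by their symbols in the deposited table, which held all 9 among its 24421 genes, and all 9 passed the expression filter that left 16723 genes for testing. RNA came from tdTomato-labeled alveolar type 2 cells (AT2s) sorted from adult mouse lungs, with 3 libraries per genotype. The labels do not say whether each library is a separate mouse, so the p-values measure only the spread between these libraries. Control cells (AT2-CTRL) had the genotype Sftpc-CreERT2/+; R26-tdTomato/+. The other group (AT2-CAB) had the genotype Sftpc-CreERT2/+; R26-tdTomato/R26-caBmpr1a, in which tamoxifen switches on a constitutively active form of the BMP receptor BMPR1a. The replicates 2 of AT2-CTRL and 1 of AT2-CAB came from mice 16 weeks old, and the other 4 libraries from mice 12 weeks old. In both groups the Cre recombinase and the tdTomato label are present and the Cre is expressed from the *Sftpc* locus, so the sort selects cells by the label and does not read whether the caBmpr1a allele itself has recombined.

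The air spaces are kept almost dry by active transport. Sodium enters AT2s and AT1s through ENaC on the apical side and is pumped out on the basolateral side by the sodium-potassium ATPase, whose β subunit is needed for its assembly and delivery to the membrane, and water follows the salt. Chloride moves through CFTR, a channel opened by cAMP, and through calcium-activated channels such as ANO1 (TMEM16A), and SLC12A2 (NKCC1) loads chloride into the cell from the basolateral side, which allows secretion of fluid. The comparison between AT2-CTRL and AT2-CAB asks how the mRNAs of this machinery differ when BMPR1a signaling is constitutively on.

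Library totals ranged from 21554249 to 28440227 counts. *Bmpr1a* itself had 105.4, 129.9 and 124.7 CPM (counts scaled to library size with edgeR's TMM factors) in AT2-CTRL and 131.1, 128.4 and 96.8 CPM in AT2-CAB, and did not pass the test (adjusted p = 0.983, where adjusted p-values are those of the quasi-likelihood test of edgeR, corrected by Benjamini-Hochberg over all genes tested). The BMP target *Id1* had between 18.5 and 20.8 CPM in AT2-CTRL and between 124.4 and 411.4 CPM in AT2-CAB, and passed it (log2 fold change 3.61, edgeR adjusted p = 0.0172). AT2-CTRL replicate 1 and AT2-CAB replicate 3 differed from the other 4 libraries in reads on the Y chromosome. They carried 171.8 and 158.0 CPM, relative to the library total, on 4 of its genes (*Eif2s3y*, *Kdm5d*, *Uty* and *Ddx3y*), where the others had 0. On the first principal component, with 49.3% of the variance, they lay at -36.7 and -73.5, and the others between 0.503 and 55.7. On the second, with 21.8%, they lay at -51.5 and 21.2. Values with and without this pair are therefore given below for each member. All 12 AT2 markers on the list passed the expression filter, and *Sftpc* had between 42700 and 60123 CPM in every library. The 8 endothelial, 8 immune and 8 mesenchymal and smooth muscle markers below passed it too, so passing does not identify AT2s. The summed level of the 12 AT2 markers ranged from 153903 to 171130 CPM in AT2-CTRL and from 111305 to 135624 CPM in AT2-CAB, without overlap. Of the 12, 10 had log2 fold changes below 0 (median -0.43). For 7 of them all AT2-CAB values lay below all AT2-CTRL values, beside 10.1% of all genes tested. In edgeR's test 0 of the 12 passed the adjusted threshold, and 6 were lower at an unadjusted p under 0.05, beside 5.05% of all genes. The part of this shift in the members' values was not tested.

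Among the 9 genes *Ano1* was the one that passed the test, and it rose. *Ano1* encodes the calcium-activated chloride channel ANO1, and its gene model covers chr7:144588549-144738592 of mm10 on the reverse strand, with no exon shared with another gene of the table. It had 23.5, 37.2 and 30.2 CPM in AT2-CTRL replicates 1, 2 and 3, and 102.6, 160.3 and 157.0 CPM in AT2-CAB replicates 1, 2 and 3. All 3 AT2-CAB libraries lay above all 3 AT2-CTRL libraries, and the lowest AT2-CAB value was 2.76 times the highest AT2-CTRL value. The means were 30.3 ± 6.83 and 140.0 ± 32.4 CPM (SD, n = 3), 4.62 times higher in AT2-CAB. On the log2 scale edgeR estimated a change of 2.21 ± 0.22 (SE, edgeR adjusted p = 0.0116), and by its p-value *Ano1* ranked 10 among the 16723 genes tested. At an adjusted p under 0.05, 1 of the 9 members was higher and 0 were lower, where 0.239% of all genes tested were higher and 0.012% were lower (0.251% in either direction). At an unadjusted p under 0.05 the members' counts were 1 higher and 1 lower, against 4.62% and 5.05% of all genes (9.67% in either direction). As the RNA is from sorted bulk cells, a change in the number of cells of a type and a change in RNA per cell cannot be told apart.

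*Ano1* was also higher in AT2-CAB in subsets of the libraries. In the 4 libraries that lack Y-linked reads its log2 fold change was 2.00 (edgeR adjusted p = 0.0151), and between the single libraries of the other pair the log2 ratio was 2.74. With 1 library left out it ranged from 2.05 to 2.41. Its adjusted p in edgeR's test was 0.0570 without AT2-CTRL replicate 2, 0.0932 without AT2-CTRL replicate 3 and 0.0599 without AT2-CAB replicate 2, so the call was lost in these 3 subsets, and it was between 0.00514 and 0.0468 in the other 3.

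*Ano1* is also expressed in smooth muscle and in airway secretory cells. The smooth muscle markers *Acta2*, *Myh11* and *Tagln* had between 5.47 and 10.5 CPM in AT2-CTRL and between 6.97 and 14.6 CPM in AT2-CAB. *Acta2* and *Myh11* overlapped between the groups. *Tagln* did not, with 9.33 to 10.5 CPM in AT2-CTRL and 10.7 to 14.5 CPM in AT2-CAB (log2 fold change 0.38, edgeR adjusted p = 0.52). The list of 8 mesenchymal and smooth muscle markers summed to between 123.8 and 167.0 CPM in AT2-CTRL and between 188.2 and 237.1 CPM in AT2-CAB, without overlap. Its 8 genes all had log2 fold changes above 0 (median 0.48). For 3 of them, *Tagln* included, all AT2-CAB values lay above all AT2-CTRL values, beside 7.0% of all genes tested. In edgeR's test 0 of the 8 passed the adjusted threshold. At an unadjusted p under 0.05, 2 of the 8 were higher, beside 4.62% of all genes tested, and 0 were lower. The list of 12 airway markers summed to between 724.1 and 917.6 CPM in AT2-CTRL and between 841.0 and 1222 CPM in AT2-CAB. Of its 9 tested genes 6 had log2 fold changes above 0 and 3 below. The club cell markers did not share a direction, since *Scgb1a1*, a secretoglobin, had 410.9 to 616.9 CPM in AT2-CTRL and 443.8 to 652.4 CPM in AT2-CAB, while *Cyp2f2*, a cytochrome P450, had 173.1 to 213.9 and 127.5 to 138.9 CPM, without overlap (log2 fold change -0.53 ± 0.12, SE, edgeR adjusted p = 0.19). The secretory markers *Scgb3a2* and *Muc5b* overlapped between the groups, with log2 fold changes of -0.058 and -0.37 (edgeR adjusted p = 0.961 and 0.907). *Tppp3*, expressed in ciliated cells, was the 1 airway marker that passed (log2 fold change 1.85, edgeR adjusted p = 0.0165). Of all genes tested 0.239% were higher at this threshold. *Foxj1*, also expressed in ciliated cells, did not pass (log2 fold change 0.61, edgeR adjusted p = 0.57). For these 2 of the 9 tested airway genes all AT2-CAB values lay above all AT2-CTRL values, beside 7.0% of all genes tested. For 1, *Cyp2f2*, they lay below, beside 10.1% of all genes. The basal cell keratin *Krt5* and the ionocyte factor *Foxi1* had 0 counts in every library. The part of other cells in the rise of *Ano1* was not tested.

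**Figure D1:**
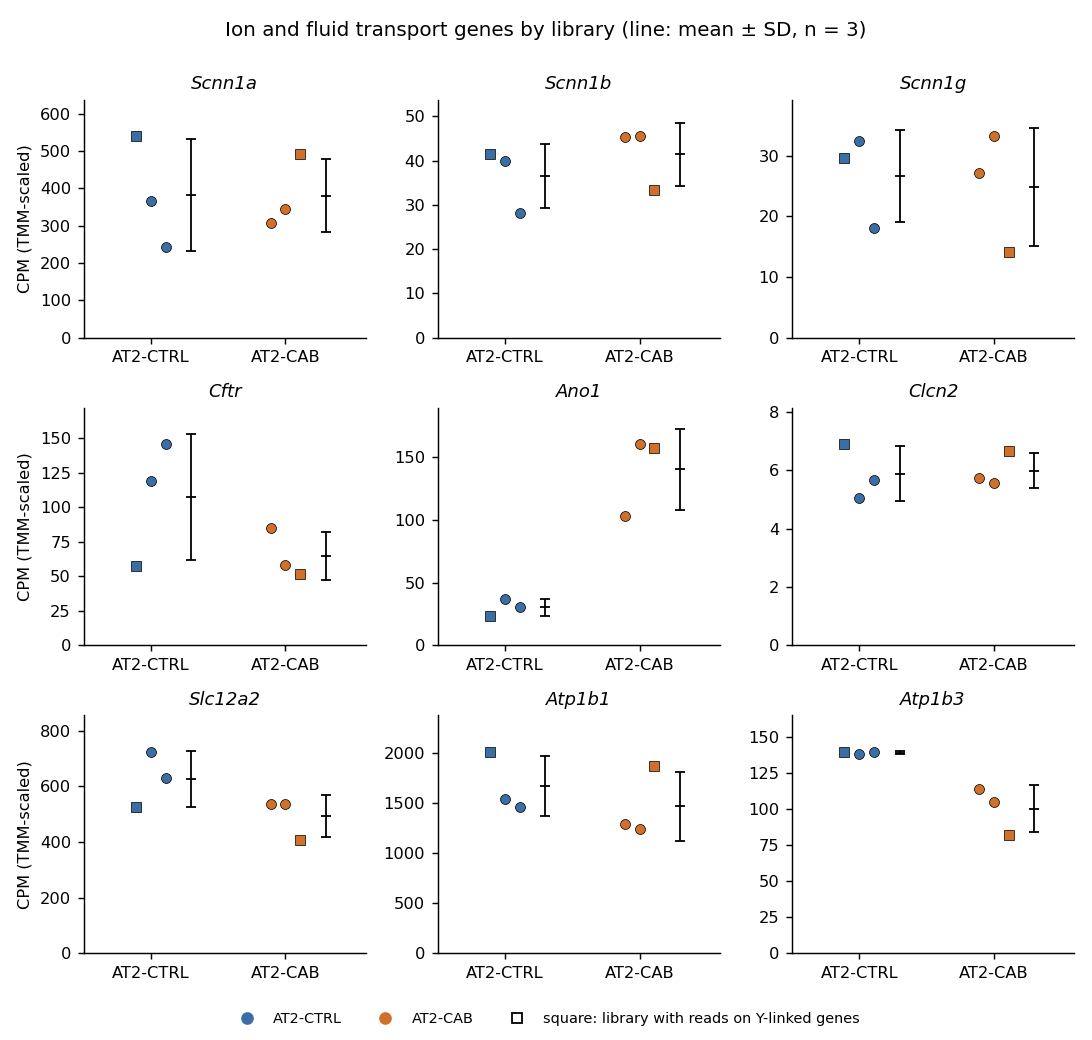
Level of each of the 9 genes in every library, in CPM scaled by TMM (vertical axes, each from 0), for AT2-CTRL (blue) and AT2-CAB (orange). Bars give the mean ± SD over 3 libraries and squares mark the pair of libraries with Y-linked reads. *Ano1* at 102.6 to 160.3 CPM in AT2-CAB lies above all AT2-CTRL libraries, *Atp1b3* lies below them, and the groups of the other 7 genes overlap.

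Of the other anoctamins, 8 were tested and 0 passed, with log2 fold changes from -0.42 to 0.89 and a smallest adjusted p of 0.372 in edgeR's test. The smallest belonged to *Ano6*, a phospholipid scramblase that also conducts ions, which was the anoctamin of the highest level per length. It had 264.7, 299.4 and 304.7 CPM in AT2-CTRL and 234.2, 214.1 and 222.6 CPM in AT2-CAB, with a log2 fold change of -0.37 ± 0.12 (SE). In CPM per kilobase of exon length, *Ano6* averaged 44.9 over the 6 libraries, while *Ano1* averaged 6.57 ± 1.48 in AT2-CTRL and 30.4 ± 7.04 in AT2-CAB (SD, n = 3).

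*Cftr*, on chr6:18170687-18322769 of mm10, gave a lower mean in AT2-CAB but did not pass the test. It had 57.4, 118.9 and 145.8 CPM in AT2-CTRL and 84.7, 58.0 and 51.5 CPM in AT2-CAB. The groups overlapped because AT2-CTRL replicate 1 lay within the range of the AT2-CAB libraries. The log2 fold change was -0.73 ± 0.33 (SE, edgeR adjusted p = 0.526). Among the 4 libraries that lack Y-linked reads both AT2-CAB values lay below both AT2-CTRL values, with a log2 fold change of -0.86 (edgeR adjusted p = 0.0862). Between the 2 libraries with such reads the log2 ratio was -0.16. Whether the difference between genotypes depends on the kind of library was not tested. With 1 library left out the log2 fold change ran from -1.04 without AT2-CTRL replicate 1 to -0.45 without AT2-CTRL replicate 3.

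*Clcn2*, a chloride channel opened by hyperpolarization, was the least abundant member. It had 6.90, 5.06 and 5.67 CPM in AT2-CTRL and 5.73, 5.55 and 6.67 CPM in AT2-CAB, which rest on 118 to 205 counts per library. The groups overlapped, and the log2 fold change was 0.027 ± 0.22 (SE, edgeR adjusted p = 0.977). It was 0.10 in the 4 libraries that lack Y-linked reads (edgeR adjusted p = 0.889), and the log2 ratio of the other pair was -0.049. Its exons share 71 bases, 1.95% of their length, with *Fam131a* on the other strand, and reads there were left out of the counts.

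*Slc12a2*, the cotransporter that brings chloride into the cell together with sodium and potassium, had 525.2, 724.5 and 631.2 CPM in AT2-CTRL and 538.0, 537.9 and 407.2 CPM in AT2-CAB. The groups overlapped through AT2-CTRL replicate 1, the lowest control. The log2 fold change was -0.34 ± 0.17 (SE, edgeR adjusted p = 0.576), and -0.30 in the 4 libraries that lack Y-linked reads (edgeR adjusted p = 0.227). The other pair had a log2 ratio of -0.37.

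Of the 3 ENaC subunits 0 passed the test, in edgeR at either an adjusted or an unadjusted p under 0.05. *Scnn1a* encodes the pore-forming α subunit. It had 540.0, 364.6 and 242.3 CPM in AT2-CTRL and 305.6, 343.5 and 491.2 CPM in AT2-CAB. The highest value of each group was that of its library with Y-linked reads, and the other 4 libraries ranged from 242.3 to 364.6 CPM in both groups together. The log2 fold change was -0.0080 ± 0.29 (SE, edgeR adjusted p = 0.996). *Scnn1b*, the β subunit, had 41.6, 39.9 and 28.2 CPM in AT2-CTRL and 45.3, 45.5 and 33.2 CPM in AT2-CAB, with a log2 fold change of 0.18 ± 0.19 (SE, edgeR adjusted p = 0.785). *Scnn1g*, the γ subunit, had 29.7, 32.4 and 18.1 CPM in AT2-CTRL and 27.1, 33.3 and 14.1 CPM in AT2-CAB, with a log2 fold change of -0.11 ± 0.32 (SE, edgeR adjusted p = 0.929). Both β and γ overlapped between the groups. In the 4 libraries that lack Y-linked reads the log2 fold changes of *Scnn1a*, *Scnn1b* and *Scnn1g* were 0.13, 0.45 and 0.30, and edgeR gave adjusted p = 0.806, 0.271 and 0.668, and between the other pair of libraries the log2 ratios were -0.14, -0.32 and -1.07. *Scnn1g* and *Scnn1b* are neighbours on the forward strand of mm10, at chr7:121734507-121768477 and chr7:121865038-121918728, and *Scnn1a* lies at chr6:125321340-125344942.

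The β subunits of the sodium pump among the members, *Atp1b1* and *Atp1b3*, had lower means in AT2-CAB without passing the test. *Atp1b3* had 139.4, 137.8 and 139.5 CPM in AT2-CTRL, a spread of 0.989 CPM (SD) around 138.9, and 113.5, 104.6 and 81.9 CPM in AT2-CAB. All 3 AT2-CAB libraries lay below all 3 AT2-CTRL libraries, which held for 10.1% of all genes tested. The log2 fold change was -0.47 ± 0.14 (SE, edgeR adjusted p = 0.328), and *Atp1b3* was the member counted above as lower at an unadjusted p under 0.05. Its log2 fold change was -0.31 in the 4 libraries that lack Y-linked reads (edgeR adjusted p = 0.139), with a log2 ratio of -0.77 in the other pair. *Atp1b1*, the most abundant member, had 2012, 1535 and 1463 CPM in AT2-CTRL and 1293, 1240 and 1865 CPM in AT2-CAB. Here too the library with Y-linked reads was the highest of its group, and the groups overlapped. The log2 fold change was -0.19 ± 0.21 (SE, edgeR adjusted p = 0.801), and -0.21 in the 4 libraries (edgeR adjusted p = 0.356) with a log2 ratio of -0.11 in the other pair. Its exons share 202 bases, 7.8% of their length, with *Nme7* on the other strand, where reads were left out.

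**Figure D2:**
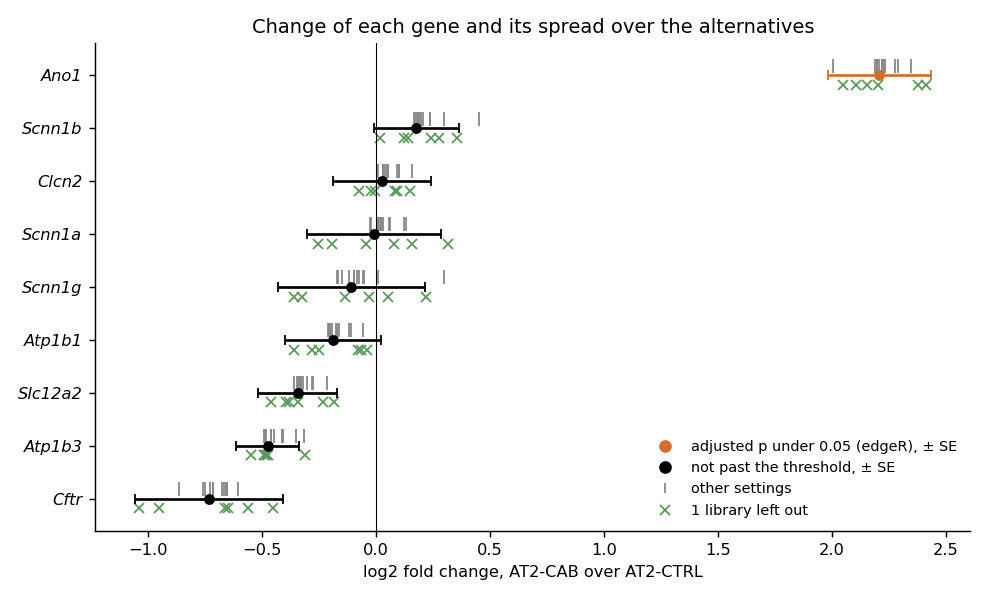
Log2 fold change of AT2-CAB over AT2-CTRL (horizontal axis) for the 9 genes, with the standard error of edgeR's estimate, in orange where the adjusted p was under 0.05. Gray ticks give the other settings and green crosses the fits with 1 library left out. *Ano1* stays between 2.00 and 2.41 in all of them, while the values of *Scnn1a*, *Scnn1g* and *Clcn2* lie on both sides of 0.

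Over the 9 genes, 3 had log2 fold changes above 0 and 6 below, with a median of -0.11, beside a median of -0.0096 over all genes tested, of which 51.2% were below 0. For 5 of the 9 members (*Scnn1a*, *Cftr*, *Clcn2*, *Slc12a2* and *Atp1b1*) the 2 libraries with Y-linked reads lay together outside the range of the other 4 libraries, whatever the genotype, which was the case for 35.4% of all genes tested. *Scnn1a*, *Clcn2* and *Atp1b1* were higher in that pair and *Cftr* and *Slc12a2* were lower. *Cftr* had 51.5 and 57.4 CPM in the pair and between 58.0 and 145.8 CPM in the other libraries. These 2 libraries are 1 of each genotype, and what else they share was not tested.

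Levels were then compared between genes per kilobase of exon length. In AT2-CTRL the order was *Atp1b1*, *Scnn1a*, *Slc12a2*, *Atp1b3*, *Cftr*, *Scnn1b*, *Scnn1g*, *Ano1* and *Clcn2*. *Atp1b1* averaged 644.8 ± 115.2 CPM per kilobase and *Clcn2* 1.61 ± 0.258 (SD, n = 3), a 399.8-fold span. The ranges of *Scnn1a* and *Slc12a2* overlapped, as did those of each neighbouring pair from *Cftr* through *Scnn1b* and *Scnn1g* to *Ano1*, while the other 4 of the 8 neighbouring pairs were separate. In AT2-CAB *Ano1* stood at position 5, behind *Atp1b3* at 54.6 ± 8.88 and ahead of *Scnn1b* at 14.5 ± 2.48 CPM per kilobase, with no overlap on either side. It exceeded *Cftr*, which averaged 10.3 ± 2.79 CPM per kilobase in AT2-CAB, in every library of that group, whereas in every AT2-CTRL library *Cftr* exceeded *Ano1*. The order of the other 8 genes was as in AT2-CTRL except that *Cftr* and *Scnn1b* changed places, and their ranges overlapped in both groups.

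**Figure D3:**
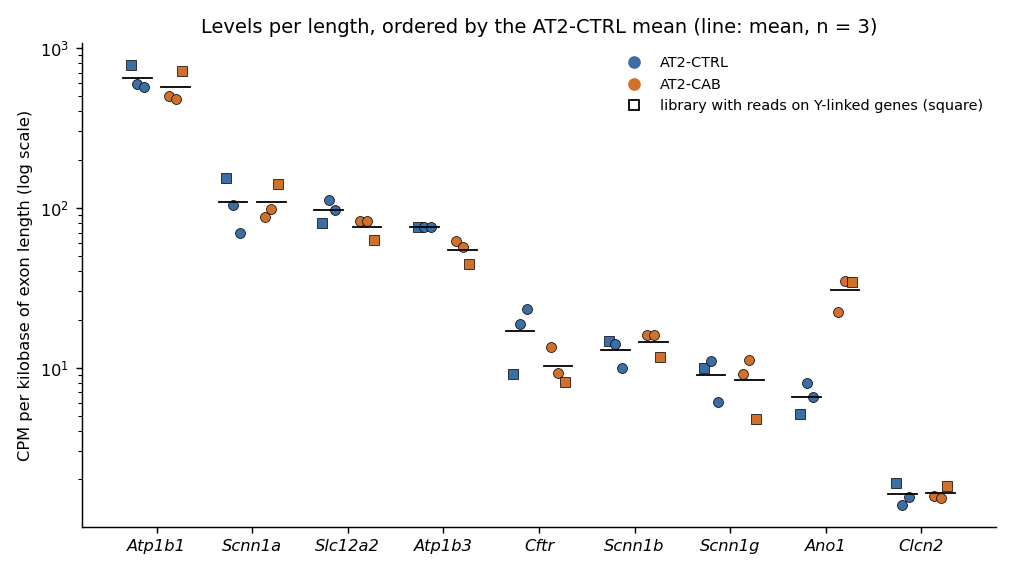
Level per length of the 9 genes in CPM per kilobase of exon length (vertical axis, log scale), in the order of the AT2-CTRL means, with 3 libraries and their mean for each group and squares for libraries with Y-linked reads. *Ano1* moved from a mean of 6.57 in AT2-CTRL to 30.4 in AT2-CAB, and of the other genes only *Atp1b3* has groups that do not overlap.

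Ratios of 2 genes within a library do not depend on the scaling between libraries, and those between members were computed from counts per kilobase. With 3 libraries against 3, an exact permutation test cannot give a p below 0.1. All 4 ratios overlapped between the groups. *Scnn1b* to *Scnn1a* was 0.0946, 0.134 and 0.143 in AT2-CTRL and 0.182, 0.163 and 0.0831 in AT2-CAB (two-sided exact permutation p = 0.6). *Scnn1g* to *Scnn1a* was 0.0648, 0.105 and 0.0881 in AT2-CTRL and 0.105, 0.114 and 0.0339 in AT2-CAB (two-sided exact permutation p = 0.9). The mRNAs of the β and γ subunits were therefore below that of the α subunit per length in all 6 libraries. *Atp1b3* to *Atp1b1* ran from 0.0980 to 0.135 in AT2-CTRL and from 0.0621 to 0.124 in AT2-CAB (two-sided exact permutation p = 0.5). *Slc12a2* to *Cftr* ran from 4.19 to 8.84 in AT2-CTRL and from 6.14 to 8.97 in AT2-CAB (two-sided exact permutation p = 0.4), and the p-values of these 4 ratios, adjusted over the 5 ratios tested, were between 0.75 and 0.9 in the exact permutation test.

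**Figure D4:**
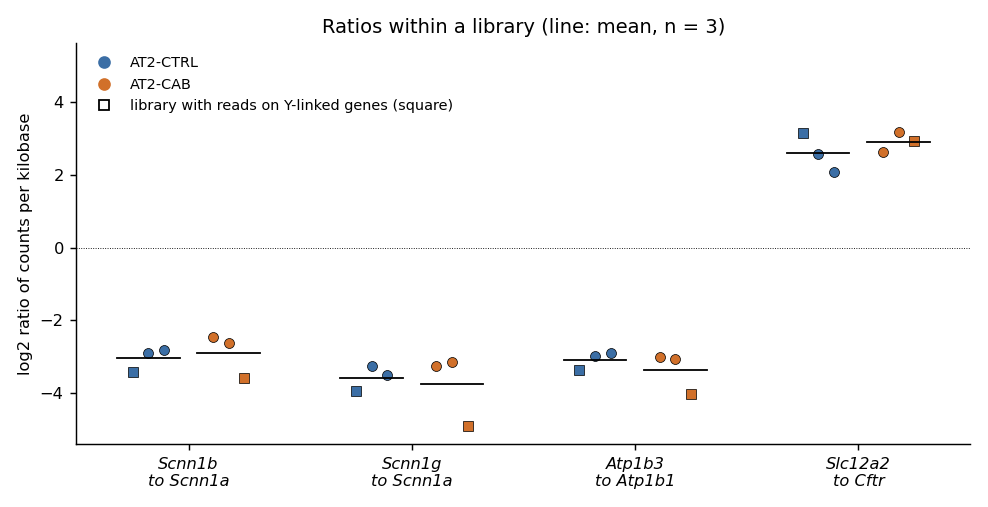
Log2 ratio of counts per kilobase between 2 genes within each library (vertical axis) for 4 gene pairs, in AT2-CTRL (blue) and AT2-CAB (orange), with the mean of 3 libraries as a line and squares for libraries with Y-linked reads. The groups overlap for all 4 pairs, and the values of *Slc12a2* to *Cftr* lie above 0 in every library while those of the other pairs lie below.

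Other genes of ion and fluid transport were described in 8 lists with 145 entries, of which 143 were in the table and 130 were tested. At an adjusted p under 0.05 in edgeR's test 1 of the 130 was higher and 0 were lower, beside 0.239% and 0.012% of all genes. At an unadjusted p under 0.05, 10 of the 130 were higher and 7 were lower, beside 4.62% and 5.05% of all genes. At its adjusted threshold DESeq2 called 4 of them, *Slc12a7*, *Adcy6*, *Kcnk2* and *Kcnk5*, and over the whole table it called 198 genes higher and 88 lower among 13672 with an adjusted p. The median log2 fold change of the 130 was 0.11, against -0.0096 for all genes tested. *Slc12a7* was the 1 of the 130 past the adjusted threshold in edgeR's test, and it was higher in AT2-CAB. The gene encodes the potassium-chloride cotransporter KCC4, a relative of SLC12A2 that moves chloride out of the cell with potassium. It had 39.4, 55.5 and 56.1 CPM in AT2-CTRL and 121.1, 181.4 and 208.3 CPM in AT2-CAB. The groups did not overlap, and the log2 fold change was 1.76 ± 0.22 (SE, edgeR adjusted p = 0.0234). In the 4 libraries that lack Y-linked reads it was 1.48 (edgeR adjusted p = 0.0225) and in the other pair the log2 ratio was 2.40. With 1 library left out it stayed between 1.6 and 1.97. The adjusted p in edgeR's test was 0.00934 without AT2-CAB replicate 1. The call was lost without AT2-CTRL replicate 1, 2 or 3, with 0.0858, 0.144 and 0.11, and without AT2-CAB replicate 2 or 3, with 0.131 and 0.0544 (edgeR's test). The related potassium-chloride cotransporter *Slc12a4* had a log2 fold change of -0.072 (edgeR adjusted p = 0.847).

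By list, 0 of 10 tested sodium pump partners passed the adjusted threshold, and their median log2 fold change was 0.42. The FXYD protein *Fxyd3*, a small regulator of the pump, had the smallest p of this list, with 2, 2 and 1 counts in AT2-CTRL and 21, 25 and 28 counts in AT2-CAB (edgeR adjusted p = 0.11). These counts stayed under 1 CPM in every library. *Fxyd6*, another FXYD protein, had a log2 fold change of -0.21 (edgeR adjusted p = 0.88). Among ENaC proteases and their regulators 0 of 15 passed (median -0.070), and for 4 of them, *Tmprss4*, *Furin*, *Spint2* and *Usp10*, all AT2-CAB values lay below all AT2-CTRL values, beside 10.1% of all genes. For 1, the protease inhibitor *Spint1*, they lay above, at 143.5 to 189.7 against 116.6 to 126.5 CPM (log2 fold change 0.43 ± 0.13, SE, edgeR adjusted p = 0.36), beside 7.0% of all genes. The related inhibitor *Spint2* and the ubiquitin ligase *Nedd4* had the highest levels per length of that list, at 404.6 and 117.9 CPM per kilobase over all libraries, with log2 fold changes of -0.21 and -0.077 (edgeR adjusted p = 0.676 and 0.905).

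Of 35 tested other chloride and anion channels and exchangers 0 passed (median 0.065). *Slc26a9*, an epithelial chloride channel of the SLC26 family, led this list at 106.9 CPM per kilobase, above *Cftr* at 13.7 and *Ano1* at 18.5 CPM per kilobase over all libraries. It had 277.4, 378.9 and 360.3 CPM in AT2-CTRL and 423.6, 443.8 and 451.1 CPM in AT2-CAB, which do not overlap, with a log2 fold change of 0.37 ± 0.15 (SE, edgeR adjusted p = 0.47). All AT2-CAB values lay above all AT2-CTRL values for 2 of the 35 genes of this list and for 7.0% of all genes tested, and below them for 1, *Ano6*, and for 10.1% of all genes. Among 13 tested cotransporters and their kinases, the list of *Slc12a7*, 1 passed, beside 0.239% of all genes that were higher, and the median was 0.18. All AT2-CAB values lay above all AT2-CTRL values for 2 of these 13 and below them for 2, beside 7.0% and 10.1% of all genes. *Wnk1*, a kinase that controls the SLC12 family through SPAK and OSR1, was the most abundant there at 30.5 CPM per kilobase, and had a log2 fold change of 0.43 (edgeR adjusted p = 0.554), while *Slc12a4* followed at 23.1 CPM per kilobase.

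Of 17 sodium-proton exchangers, bicarbonate transporters and carbonic anhydrases, 0 passed (median 0.13). The scaffold *Slc9a3r2* (NHERF2), at 146.3 CPM per kilobase, had a log2 fold change of -0.085 (edgeR adjusted p = 0.855), and carbonic anhydrase 2 (*Car2*), at 100.4 CPM per kilobase, had 0.62 (adjusted p = 0.355). *Car4*, a membrane-bound carbonic anhydrase that is also a marker of capillary endothelium, had 0.72 (adjusted p = 0.271). The 8 endothelial markers, *Car4* among them, all had log2 fold changes above 0 and summed to between 209.1 and 472.1 CPM in AT2-CTRL and between 410.8 and 675.5 CPM in AT2-CAB. Of 7 tested water channels 0 passed (median 0.019). *Aqp5*, the apical water channel best known from AT1s, had 547.3, 470.2 and 383.0 CPM in AT2-CTRL and 352.5, 299.6 and 320.3 CPM in AT2-CAB, without overlap, and a log2 fold change of -0.53 ± 0.16 (SE, edgeR adjusted p = 0.352). *Aqp1*, the water channel of endothelium, had a log2 fold change of 0.57 (edgeR adjusted p = 0.493).

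The 11 tested potassium channels included 0 that passed, and their median was -0.22. For 3 of them all AT2-CAB values lay below all AT2-CTRL values, beside 10.1% of all genes. *Kcnk5* had 24.5, 19.1 and 24.8 CPM in AT2-CTRL and 13.5, 11.9 and 13.0 CPM in AT2-CAB (log2 fold change -0.83 ± 0.15, SE, edgeR adjusted p = 0.103). *Kcnk2* had 24.4, 19.3 and 20.8 CPM in AT2-CTRL and 14.3, 8.65 and 12.2 CPM in AT2-CAB (log2 fold change -0.88 ± 0.20, SE, edgeR adjusted p = 0.198). Both encode potassium channels of the K2P family, which carry background currents. *Kcnj15*, an inward rectifier and with 98.0 CPM per kilobase the most abundant of the list, had a log2 fold change of -0.57 (edgeR adjusted p = 0.317), and *Kcne2*, an accessory subunit at 96.8 CPM per kilobase, had -0.22 (adjusted p = 0.617). In the 4 libraries that lack Y-linked reads *Kcnj15* passed, with -0.70 (edgeR adjusted p = 0.0315). Of 22 tested genes of hormone and cAMP control 0 passed (median 0.20), and for 5 of them, *Adcy3*, *Adcy6*, *Adrb3*, *Tsc22d3* and *Vipr1*, all AT2-CAB values lay above all AT2-CTRL values, beside 7.0% of all genes. For 1, the protein kinase A subunit *Prkaca*, they lay below, at 102.0 to 114.9 against 121.6 to 130.9 CPM (log2 fold change -0.21 ± 0.11, SE, edgeR adjusted p = 0.577), beside 10.1% of all genes. *Adcy6*, an adenylyl cyclase that makes cAMP, had 107.1, 118.8 and 126.8 CPM in AT2-CTRL and 171.9, 229.7 and 277.3 CPM in AT2-CAB, without overlap (log2 fold change 0.95 ± 0.18, SE, edgeR adjusted p = 0.122). *Adcy7* and the glucocorticoid-induced *Tsc22d3* had the highest levels per length of this list, at 78.3 and 70.5 CPM per kilobase, with log2 fold changes of 0.11 and 0.16 (edgeR adjusted p = 0.867 and 0.669).

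**Figure D5:**
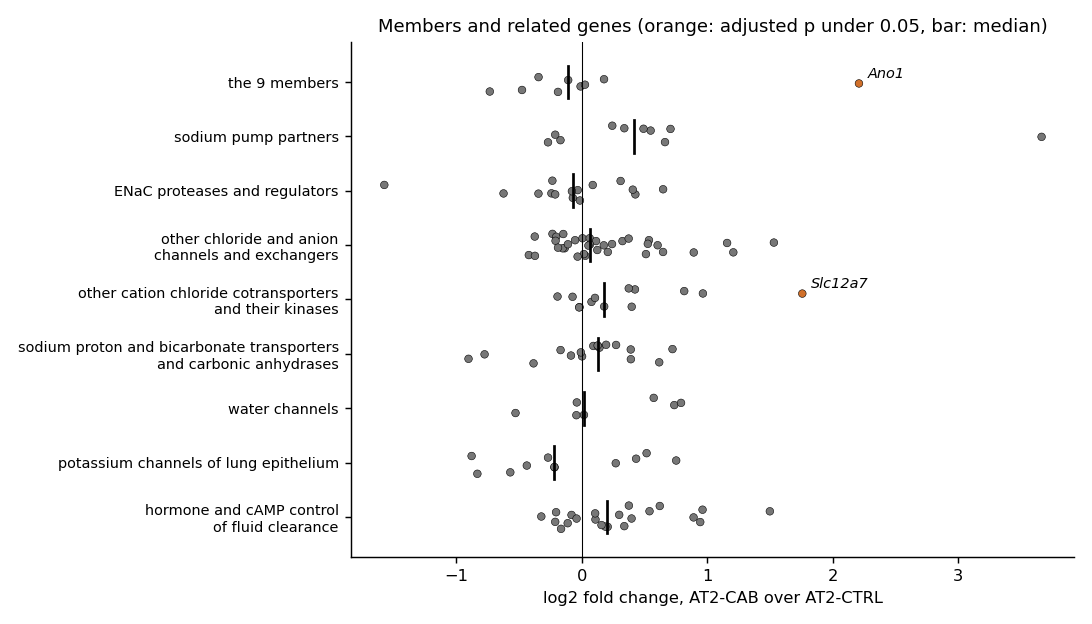
Log2 fold change of AT2-CAB over AT2-CTRL (horizontal axis) for the 9 genes and for the tested genes of the 8 related lists, 1 point per gene, with the list's median as a bar and genes with an adjusted p under 0.05 in orange. *Ano1* at 2.21 and *Slc12a7* at 1.76 are the points past the threshold.

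The other marker lists had the following levels. The 12 AT1 markers summed to between 2984 and 3815 CPM in AT2-CTRL and between 3274 and 3925 CPM in AT2-CAB, with a median log2 fold change of 0.33. In edgeR's test 0 of the 12 passed the adjusted threshold. At an unadjusted p under 0.05, 1 was higher and 1 lower, beside 4.62% and 5.05% of all genes tested. The 8 immune markers summed to between 57.8 and 63.7 CPM in AT2-CTRL and between 52.4 and 111.7 CPM in AT2-CAB. Of them and of the 8 endothelial markers 0 passed the adjusted threshold in edgeR's test. At an unadjusted p under 0.05, 1 of the 8 immune and 5 of the 8 endothelial markers were higher, beside 4.62% of all genes. Their part in the values above was not tested.

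Promoter windows of RefSeq on GRCm38.p6, the assembly behind mm10, were read for the 250 bases before each annotated start of transcription. Of the 9 members 7 had a window, and *Atp1b3* had 2. The palindrome GGCGCC, a site of SMAD1 and SMAD5 in BMP response elements, and the SMAD box GTCTG, or CAGAC on the other strand, were searched on both strands, and neither motif contains the other. GGCGCC was in 9.59% and GTCTG in 42.2% of all 32851 windows. GGCGCC was present for *Cftr* and in 1 of the 2 windows of *Atp1b3*, and GTCTG for *Scnn1g* and in the 2 windows of *Atp1b3*. The *Atp1b3* window with GGCGCC, chr9:96363716-96363965, lies inside the counted gene model, chr9:96332675-96364299. The window of *Ano1*, shown as the member that passed the test, and that of *Cftr*, shown beside it as a chloride channel whose window holds the palindrome, follow in lower case with motif matches in capitals. The first lies on the reverse strand at chr7:144738574-144738823 and the second on the forward strand at chr6:18170437-18170686. The first overlaps the counted gene model of *Ano1*, which reaches base 144738592. In the window of *Ano1* neither motif was found, which says nothing beyond these letters in these 250 bases.
Ano1: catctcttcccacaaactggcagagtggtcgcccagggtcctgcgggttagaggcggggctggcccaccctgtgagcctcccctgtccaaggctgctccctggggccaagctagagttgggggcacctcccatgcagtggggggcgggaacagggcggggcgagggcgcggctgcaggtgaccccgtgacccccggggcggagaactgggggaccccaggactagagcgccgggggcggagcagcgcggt
Cftr: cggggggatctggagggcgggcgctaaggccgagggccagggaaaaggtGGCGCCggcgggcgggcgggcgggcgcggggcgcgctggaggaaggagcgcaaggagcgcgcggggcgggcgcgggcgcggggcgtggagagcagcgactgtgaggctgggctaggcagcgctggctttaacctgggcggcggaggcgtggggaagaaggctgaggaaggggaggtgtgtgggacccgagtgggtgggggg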

How the data were processed

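RNA of FACS-sorted, lineage-labeled AT2s was poly(A)-enriched and sequenced in paired ends. The authors trimmed the reads, aligned them to mm10 with Hisat2, removed duplicates and counted reads per gene with featureCounts without strand, and the deposited values are raw counts per gene, with reads on overlapping genes left out. The counting command in the file header has no option for pairs, so both mates may add to a count, and fits with halved counts were among the alternatives.

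The members and lists were chosen with earlier results of these data known. Genes passing edgeR's expression filter were scaled by TMM and tested with edgeR's quasi-likelihood test (edgeR 4.0.16, R 4.3.3), AT2-CAB against AT2-CTRL, with Benjamini-Hochberg adjustment over all 16723 genes and a threshold of 0.05. The edgeR, DESeq2 and limma fits without covariates were tested on simulated counts. These held no difference between libraries with and without Y-linked reads. Named genes were the 9 members, the 6 related genes of smallest p, the one past the threshold included, and the 2 of highest level per length in each related list, of which some, and 1 of the 5 ratios tested, are not reported here. Other genes named, in particular those whose groups do not overlap, were chosen after their values were seen. Alternatives were DESeq2 1.42.0, limma 3.58.1, other scalings and filters, covariates, a replicate block and leaving out each library. Replicate numbers were not used as pairs in the main test. Library totals of 21554249 to 28440227 counts limit the precision of the least abundant genes. Counts of replicates differed beyond sampling noise.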

Additional observations from a re-analysis of the deposited data

How the results depend on the processing

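1 member was called under every other setting run, but 0 to 1 with 1 library left out, and it was lost without AT2-CTRL replicate 2 or 3 or AT2-CAB replicate 2. Of the related genes 1 was called, against 4 by DESeq2, 8 when Y-linked reads entered as a covariate, 2 in the libraries without such reads, and 0 to 2 with 1 library left out. Calls over all genes, higher and lower, also differed, with 40 and 2 as reported, 198 and 88 by DESeq2, 213 and 210 with that covariate and 73 and 40 in those 4 libraries. *Scnn1a* turned positive with DESeq2 (0.011), limma (0.027), RLE size factors (0.025), upper-quartile scaling (0.064), library size only (0.12), a minimum count of 50 (0.060), the replicate block (0.033), the covariate for Y-linked reads (0.019), the 4 libraries without them (0.13) and halved counts (0.010), and ran from -0.25 to 0.32 with 1 library left out. *Scnn1g* was 0.011 with library size only, 0.30 in the 4 libraries, and -0.36 to 0.22 with 1 library left out, and *Clcn2* ran from -0.075 to 0.15. With 1 library left out the log2 ratio differences were -0.069 to 0.50 for *Scnn1b* to *Scnn1a*, -0.50 to 0.38 for *Scnn1g* to *Scnn1a* and -0.47 to 0.034 for *Atp1b3* to *Atp1b1*. The cause was not tested. Scaling by library size only moved the median over all genes to 0.12.

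Deviations of samples with the same replicate number correlated at -0.24, 0.20 and -0.53. So few values cannot decide whether samples of the same number form pairs. With the replicate block 1 member and 1 related gene were called, *Ano1* had a log2 fold change of 2.21, and 36 genes were higher and 5 lower over the whole table, against 40 and 2 without it.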
